A study of Mus musculus with 18 samples.

Results

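Niban1 (ENSMUSG00000026483) was followed across naive, effector and memory CD8+ T cells of mice that were wild type (WT) or carried a conditional knockout (cKO) of Hspa9, the gene of the mitochondrial chaperone GRP75. It is 1 gene of 27830 listed in any of the 3 deposited tables and of 20825 listed in all of them, found by its name. The gene was chosen by its measured values, the levels by group and the differences between genotypes, so its own levels and fold changes are given as a description, with no test. Poly-A RNA was sequenced from 18 libraries in 6 groups of 3, namely WT and cKO naive cells, WT and cKO effector cells, and WT and cKO memory cells. Naive cells were taken from the spleen and lymph nodes of animals aged 8 weeks. Effector and memory cells are the products of culturing such naive cells, so neither is a population that formed in an animal. All 6 groups are labelled as untreated. The Cre driver, the deleted part of Hspa9, the sex and number of mice, and the culture conditions are not given in the sources used here. Nothing states that the replicates of a group came from separate mice, so every SD, SE and p-value measures the spread between these libraries, which may be technical.

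NIBAN1, also known as FAM129A, is a cytosolic protein that stressed cells make in larger amounts. It is known as a gene induced through ATF4, the transcription factor that is translated when the initiation factor eIF2 is phosphorylated in the integrated stress response. The protein has been linked to the phosphorylation of eIF2 and of the translation regulators of the mTORC1 pathway, and, as a substrate of the kinase AKT, to the NPM1, MDM2 and p53 axis. It has a pair of paralogs, NIBAN2 (FAM129B) and NIBAN3, the latter known from B cells.

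In the coordinates of the deposited tables, which are on the mouse build GRCm39, Niban1 is a protein-coding gene on the plus strand of chromosome 1, from 151446937 to 151597690, with a listed length of 7380 bases. No other listed gene overlaps it. The promoter of Niban1 is shown with those of Asns, which makes asparagine, and Gars, the glycyl-tRNA synthetase. These 2 stress response genes are among the 8 genes whose levels were most like those of Niban1, as described further on. Psat1, the list member whose levels were closest, is not shown. Each sequence is the 250 bases before the start site, 5′ to 3′ on the gene's own strand, from RefSeq on the older build GRCm38.p6, where the Niban1 window is chr1:151571123-151571372, that of Asns chr6:7693210-7693459 on the minus strand, and that of Gars chr6:55037751-55038000. Capitals mark a match, on either strand, to TGATGNAA, the form of the C/EBP-ATF response element through which ATF4 acts.
Niban1: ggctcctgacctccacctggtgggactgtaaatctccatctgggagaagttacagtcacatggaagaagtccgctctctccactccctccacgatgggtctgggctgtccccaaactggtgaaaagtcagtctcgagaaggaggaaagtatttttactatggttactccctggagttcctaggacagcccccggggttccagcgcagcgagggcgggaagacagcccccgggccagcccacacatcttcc
Asns: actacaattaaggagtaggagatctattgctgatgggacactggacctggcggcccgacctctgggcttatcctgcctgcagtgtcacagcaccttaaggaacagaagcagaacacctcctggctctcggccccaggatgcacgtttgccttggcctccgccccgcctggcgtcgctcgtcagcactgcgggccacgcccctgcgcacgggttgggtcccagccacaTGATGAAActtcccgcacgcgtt
Gars: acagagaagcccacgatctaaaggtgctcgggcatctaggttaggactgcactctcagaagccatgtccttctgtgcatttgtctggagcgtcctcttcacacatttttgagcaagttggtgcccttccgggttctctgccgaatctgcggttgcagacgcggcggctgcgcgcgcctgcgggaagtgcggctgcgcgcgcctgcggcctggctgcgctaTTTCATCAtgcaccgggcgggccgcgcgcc

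The Niban1 window has a GC content of 57.6% and 8 CpG dinucleotides, against medians of 52.4% and 6 over 32851 promoters. It holds no match to TGATGNAA, which 3.45% of all promoter windows hold. Asns has its match 23 bases before the start site and Gars has one, on the opposite strand, 30 bases before it. Of 38 genes of the integrated stress response list with a promoter in the table, 10 held that motif. Psat1, the list member closest to Niban1 over the libraries, was not among those 10. The Niban1 window also holds no TGACGTCA, the cyclic AMP response element (1.55% of all windows), no CCAAT box (33.8%) and no CACGTG, the E-box (6.02%). These letters were searched on both strands and do not overlap each other. No match says only that the letters are absent from these 250 bases.

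Niban1 was high in effector cells of both genotypes, low in WT naive and WT memory cells, and many times higher in the cKO than in the WT libraries of the latter subsets. Within a table the values are normalised reads, the reads of a gene divided by 1 size factor per library. In naive cells the 3 WT libraries held 94.9, 112 and 119 normalised reads of Niban1, and the 3 cKO libraries held 2202, 2264 and 2318. The means were 109 ± 12.3 and 2262 ± 58.1 (SD, n = 3 each), a ratio of 20.8. Every cKO library was at least 18.5 times any WT library. The WT value rests on few reads, 90, 111 and 109 in the 3 libraries.

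In memory cells the WT libraries held 424, 459 and 484 normalised reads and the cKO libraries held 1398, 1712 and 1617. The means were 456 ± 29.9 and 1576 ± 161 (SD, n = 3 each), a ratio of 3.46. The lowest cKO library was 2.89 times the highest WT library, so the genotypes did not overlap. In effector cells the order was the opposite, with 3513, 3370 and 3292 normalised reads in the WT libraries and 2738, 2733 and 2909 in the cKO libraries. The means were 3392 ± 112 and 2793 ± 100.4 (SD, n = 3 each), a ratio of 0.824. Here too the groups did not overlap, though the gap was small beside those in the other subsets. In bulk RNA, fewer cells with the transcript and less of it per cell cannot be told apart.

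On the scale of log2(normalised reads + 1), the difference of cKO from WT was 4.37 (SE 0.10) in naive, -0.28 (SE 0.04) in effector and 1.79 (SE 0.09) in memory cells. The authors' deposited tables, which give WT over cKO, list -4.38, 0.28 and -1.79 for the same subsets. The effect in effector cells was thus lower than that in naive cells by 4.65, and the effect in memory cells was above that in effector cells by 2.07 and lower than that in naive cells by 2.59, none of which was tested. Leaving out 1 library at a time kept the log2 difference between 4.28 and 4.44 in naive, -0.31 and -0.25 in effector, and 1.72 and 1.87 in memory cells.

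**Figure D1:**
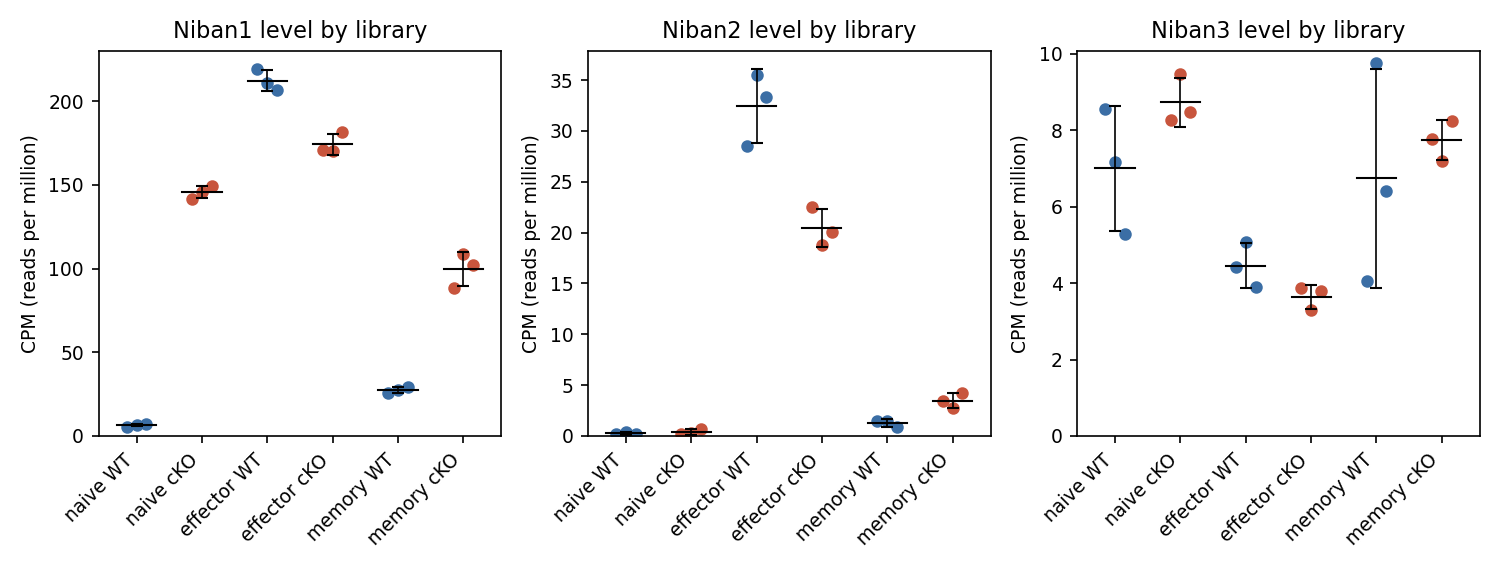
Level of Niban1, Niban2 and Niban3 in each library, in CPM (linear axes from 0, a different range in each panel), with points for libraries, blue for WT and red for cKO, and bars for the mean ± SD of 3 libraries. Niban1 was lowest in WT naive cells (mean 6.44) and highest in WT effector cells (212), Niban2 was found mainly in effector cells, and Niban3 stayed under 10 in every library.

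Levels were set side by side across the subsets as CPM, the usual scaling of reads to the library total, since the size factors of the 3 tables are not on one scale. The order of the group means, from the lowest, was WT naive (6.44 ± 0.710), WT memory (27.4 ± 1.81), cKO memory (99.9 ± 10.3), cKO naive (146 ± 3.76), cKO effector (174 ± 6.23) and WT effector cells (212 ± 6.55, SD, n = 3 each). Each step of this order was larger than the spread, in that no library of a group reached the next group, with ratios of 4.26, 3.64, 1.46, 1.20 and 1.22 between neighbours. Among WT cells the log2 ratio of effector to naive was 5.04, that of memory to naive 2.09, and that of memory to effector -2.95. Among cKO cells the same ratios were 0.26, -0.54 and -0.80. The 3 cKO groups thus lay within a ratio of 1.74, while the WT groups spanned a ratio of 33.0. The cKO effector to naive ratio is the one that moved most with the scaling, to 0.45 with TMM factors over all 18 libraries and 0.48 with DESeq2 size factors.

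Per kilobase of listed length, Niban1 stood at 0.873 CPM per kilobase in WT naive cells, above 18.6% of the 13885 genes tested in that subset, and at 19.7, above 80.3% of them, in cKO naive cells. In memory cells it moved from 3.72 CPM per kilobase (above 44.4% of 14622 genes) in WT to 13.5 (above 73.5%) in cKO. In effector cells it stood at 28.8 (above 86.6% of 13815 genes) in WT and 23.6 (above 83.1%) in cKO. Niban1 therefore went from among the less abundant to among the more abundant genes between WT and cKO naive cells, and was among the more abundant ones in effector cells of both genotypes.

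In the order of log2 differences, taken over genes with a known symbol and a mean of at least 50 normalised reads, Niban1 ranked 13 from the highest of 9681 in naive cells. Next above it stood Asns (5.72), the neutral amino acid transporter Slc1a4 (4.96) and the alanine aminotransferase Gpt2 (4.79), and next below it the interferon-induced Oasl2 (4.19), the T cell receptor gamma constant gene Trgc2 (4.09) and the transcription factor Atf5 (4.07). Of the 6, Asns, Slc1a4 and Atf5 are on the stress response list. In memory cells it ranked 229 of 10021, between Aqp9, Cxcl10 and Asns (1.80 each) and Tmem163, Bcl11a (1.78 each) and Zcchc24 (1.76). In effector cells it ranked 850 from the lowest of 9648, in a dense stretch where Cntrob, Slbp and Mcm6 stood next above and Garin3, Dscc1 and S1pr1 next below, all at -0.28. Slbp and Mcm6, the histone stem-loop binding protein and a subunit of the replicative helicase, are genes of S phase.

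Hspa9 itself, the gene named as deleted, was higher in the libraries labelled cKO in every subset, with 3992 ± 176 normalised reads in WT and 6438 ± 284 in cKO naive cells, 2093 ± 79.7 and 2339.9 ± 151 in effector cells, and 4041 ± 119 and 5637 ± 160 in memory cells. The deleted part of the gene is not given, so a count over the whole gene cannot check the deletion, and cKO stands for the label throughout. In naive cells the Y-linked genes Ddx3y, Eif2s3y, Kdm5d and Uty had 0 reads in the WT libraries and means of 2907, 1699, 1275 and 487 normalised reads in the cKO libraries, while Xist, the X-inactivation RNA, was at 16393 and 4428. Genotype and sex cannot be told apart in the naive comparison. These 4 Y-linked genes were not listed in the effector and memory tables. The effector minus naive and memory minus naive differences therefore carry the same limit. So do the ratios of other groups to cKO naive cells. Depth ran from 14771251 to 18049774 assigned reads a library, and replicates had a coefficient of variation of 8.91% in the naive, 5.50% in the effector and 9.94% in the memory table. The 15 CD8 T cell markers, none at 0 in any group, summed to between 8982 and 9310 CPM in WT and 8070 and 8374 in cKO naive libraries, 9570 to 9702 and 8860 to 9128 in effector, and 8206 to 8832 and 7081 to 8182 in memory libraries. The sum was lower in the cKO libraries of each subset without overlap, and its part in the level of Niban1 was not tested.

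The paralogs did not share the pattern of Niban1 in full. Niban2, on chromosome 2 from 32766126 to 32815266 and listed at 4672 bases, encodes a membrane-associated protein of epithelial and other adherent cells. In effector cells its WT libraries held 456, 568 and 532 normalised reads and its cKO libraries 360, 302 and 321. It fell by 0.66 on the log2 scale (SE 0.09, limma adjusted p = 4.8e-05), the same direction as Niban1. In memory cells Niban2 held 24.6, 25.4 and 14.4 normalised reads in WT and 54.5, 43.2 and 67.5 in cKO libraries. It rose by 1.34 (SE 0.30, limma adjusted p = 0.0077), again without overlap. The difference of these effects, memory minus effector, was 2.00 (SE 0.47, limma adjusted p = 0.0089).

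In naive cells Niban2 was close to absent in both genotypes, with 4.50 ± 2.22 and 6.12 ± 4.26 normalised reads (SD, n = 3 each), under the filter of 10 reads in 3 libraries, so the subset with the largest Niban1 difference has no tested value of Niban2. Niban3, on chromosome 8 from 72050292 to 72060580 and listed at 3560 bases, passed no test of genotype. Its log2 differences were 0.22 (SE 0.18) in naive, -0.28 (SE 0.19) in effector and 0.21 (SE 0.26) in memory cells, with limma adjusted p of 0.40, 0.35 and 0.63. Its WT memory libraries were far apart, at 67.0, 164 and 106 normalised reads. Per kilobase, Niban1 was the most abundant of the 3 paralogs in every group except WT naive cells, where Niban3 stood at 1.97 CPM per kilobase against 0.873 for Niban1 and 0.057 for Niban2. The 13 B cell markers summed to between 442 and 480 CPM in WT and 358 and 393 in cKO naive libraries, 224 to 232 and 296 to 311 in effector, and 754 to 831 and 949 to 1107 in memory libraries. Their part in the level of Niban3 was not tested.

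The genes around Niban1 on chromosome 1 showed whether the difference extended along the chromosome. Of the 4 tested genes on each side, 1700025G04Rik, whose product has no role that is well established, was called in all 3 subsets. That share of 1 in 8 for naive cells stands beside 24.9% of all 13885 genes tested there, and the share for memory cells beside 19.1% of 14622. 1700025G04Rik starts 281217 bases after the start of Niban1, on the other strand. It rose by 1.28 in naive (132 ± 10.0 to 321 ± 34.2 normalised reads, limma adjusted p = 2.4e-05), by 0.44 in effector (1528 ± 68.0 to 2073 ± 174, limma adjusted p = 2.3e-05) and by 1.13 in memory cells (654 ± 57.0 to 1433 ± 71.2, limma adjusted p = 2.2e-06). In effector cells it thus moved against Niban1.

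Edem3, which trims mannose from misfolded glycoproteins and is the next tested gene after Niban1, rose in effector cells by 0.24 (limma adjusted p = 0.0036). Its other values were 0.07 in naive (adjusted p = 0.54) and -0.31 in memory cells (adjusted p = 0.13). The long non-coding gene ENSMUSG00000120556 rose by 0.86 in effector cells (limma adjusted p = 0.0094). These make 3 of 8 neighbours called in effector cells, beside 20.1% of 13815 genes. Trmt1l, a tRNA methyltransferase homologue, Rnf2, the catalytic subunit of a Polycomb complex, Tsen15, a subunit of the tRNA splicing endonuclease, and the unnamed loci Gm37893 and Gm36527 were not called in any subset. The value of Rnf2 in naive cells was -0.12 with the deposited size factors and 0.00 on library totals.

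**Figure D2:**
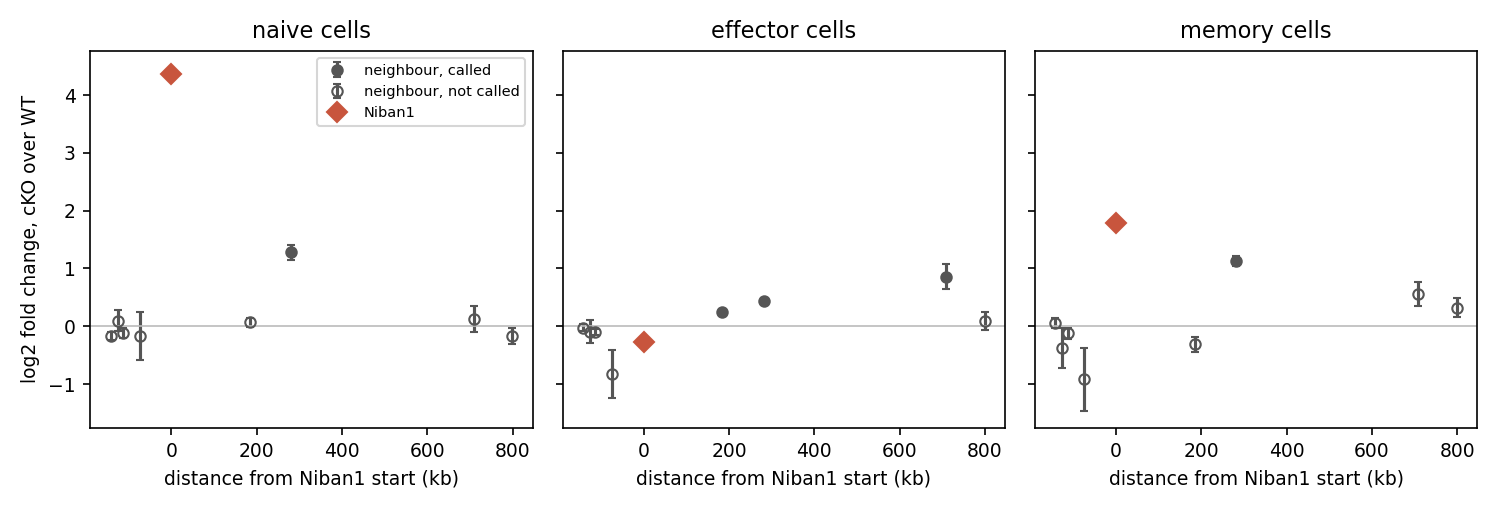
Log2 difference of cKO from WT (vertical axis, bars ± SE of 3 libraries a group) of Niban1 (red diamond, the deposited start at 0) and the 4 tested genes on each side, against the distance of their start from that of Niban1 in kilobases, one panel per subset. Filled points are called at an adjusted p under 0.05. In naive cells Niban1 stood at 4.37 and the highest neighbour, 1700025G04Rik, at 1.28.

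The integrated stress response list holds 47 targets and partners of ATF4, of which 45 were found in the tables, Niban1 left out. It contains transcription factors, amino acid transporters, enzymes of serine, asparagine and proline synthesis, and aminoacyl-tRNA synthetases. In naive cells 41 members passed the filter on low values, which asks for 10 normalised reads in 3 libraries. Of these, 9 passed only through the cKO libraries and 1 only through the WT libraries. In all, 35 rose, where 12.9% of all genes tested rose. Of the 35, 8 passed only through the cKO libraries, so these had to differ. The single member that fell, where 11.9% of all genes fell, was Ddit4, an inhibitor of mTORC1, by 0.56 (limma adjusted p = 0.0038). The median log2 difference of the 41 was 1.35, beside -0.01 for all genes tested, and the value of Niban1 in the same libraries was 4.37. In memory cells 40 members passed, 5 of them only through the cKO libraries. In all, 36 rose and 0 fell, where 12.1% of all genes rose and 7% fell. The 5 were among the 36 and had to differ. The median of the 40 was 0.82 beside -0.02, and the value of Niban1 was 1.79.

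In effector cells 36 members passed, 1 of them only through the WT libraries, and 7 rose, where 10.7% of all genes rose, and 2 fell, where 9.37% fell. The median was 0.06 beside -0.01 for all genes, while Niban1 was at -0.28. The members that fell were Gars, by 0.15 (limma adjusted p = 0.010), and Mthfd2, a mitochondrial folate enzyme, by 0.24 (limma adjusted p = 0.021). In effector cells Niban1 was thus slightly below every member of the list that passed the filter. The genotype effect on the list differed between subsets. Of 42 members tested, 37 differed between effector and naive, 28 between memory and naive and 29 between memory and effector cells, beside 18.5%, 16.9% and 8.71% of all 15694 genes. A member can pass the filter for these differences through 1 group alone, which favours a difference, and such members were not counted. The effector minus naive difference was negative for 35 and positive for 2 (9.69% and 8.81% of all genes), the memory minus naive difference was negative for 25 and positive for 3 (9% and 7.89%), and the memory minus effector difference was positive for 29 and negative for 0 (4.75% and 3.96%). The balance of the calls over all genes depended on the tool, since edgeR on the recovered reads called 1486 positive and 1259 negative for memory minus naive, against 1239 and 1413 by limma, and 1090 and 519 for memory minus effector, against 745 and 622. The signs of the Niban1 differences, -4.65, -2.59 and 2.07, are those of these majorities. The 3 effects share their libraries between these differences, so the counts are not independent. In the differences from naive cells, genotype and sex cannot be told apart, as described above for the naive libraries.

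**Figure D3:**
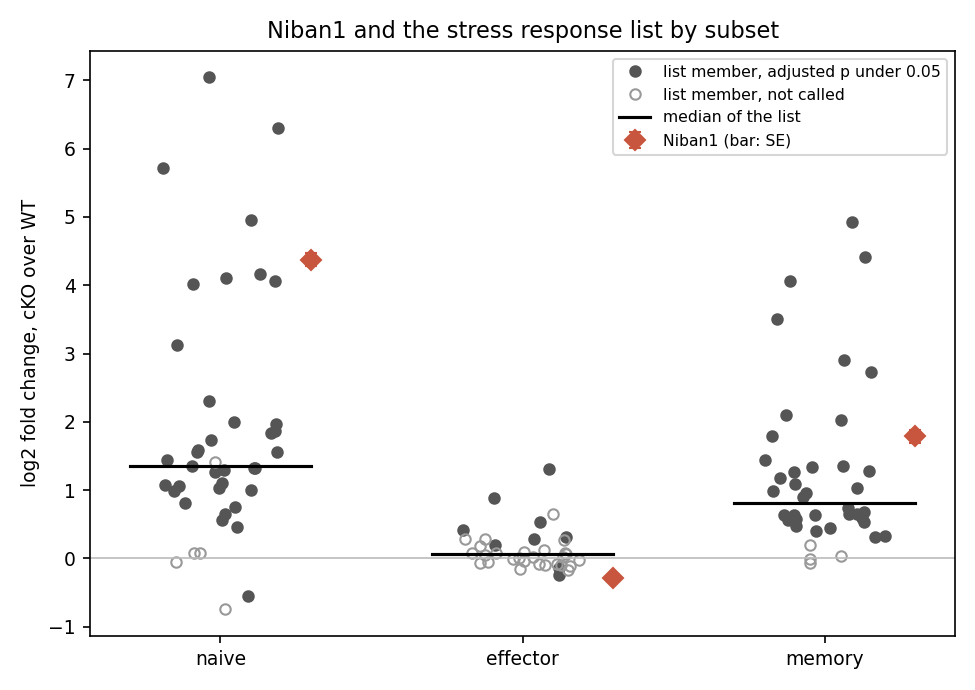
Log2 difference of cKO from WT in each subset for the members of the integrated stress response list (filled where called at an adjusted p under 0.05, open where not), the median of the list (line) and Niban1 (red diamond, bar ± SE of 3 libraries a group, smaller than the symbol). Niban1 stood at 4.37, -0.28 and 1.79, and the list medians at 1.35, 0.06 and 0.82; the horizontal spread of points has no meaning.

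The named members were those with the smallest adjusted p in each subset. Atf5, a transcription factor downstream of ATF4, went from 82.0 ± 15.0 to 1379 ± 106 normalised reads in naive cells (SD, n = 3 each), a rise of 4.07 (limma adjusted p = 4.2e-09), and rose by 2.90 in memory cells (limma adjusted p = 1.9e-08). Its effector value was 0.27 (limma adjusted p = 0.21). Slc7a5, the light chain of the large neutral amino acid transporter, rose by 2.31 in naive (limma adjusted p = 5.0e-09) and 1.44 in memory cells (limma adjusted p = 2.3e-07) and stood at 0.08 in effector cells. Xpot, the tRNA exporter, and Aars, the alanyl-tRNA synthetase, rose in naive cells by 1.56 and 1.99 (limma adjusted p = 1.8e-08 and 2.0e-08). Trib3, a pseudokinase that restrains ATF4, rose by 4.41 in memory cells (limma adjusted p = 1.7e-08), from 29.7 ± 7.65 to 641 ± 63.5 normalised reads. Atf3, a further transcription factor of the response, rose there by 2.73 (limma adjusted p = 6.5e-08).

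In effector cells the members with the smallest adjusted p were Ddit4, which rose by 0.53 (limma adjusted p = 2.5e-06), Slc3a2, the heavy chain partner of Slc7a5 (0.31, limma adjusted p = 3.8e-05), the secreted glycoprotein gene Stc2 (1.31, limma adjusted p = 7.1e-05) and Atf3 (0.89, limma adjusted p = 1.0e-04). All 4 moved against Niban1 in that subset. Atf4 itself, named for its role and not by the rule, rose by 0.56 in naive (limma adjusted p = 6.1e-05) and 0.32 in memory cells (limma adjusted p = 0.016), and stood at 0.09 in effector cells (limma adjusted p = 0.19). The 45 members summed to between 2648 and 2815 CPM in WT and 5801 and 6185 in cKO naive libraries, 3226 to 3262 and 3372 to 3410 in effector, and 3682 to 3748 and 5203 to 5432 in memory libraries. Niban1 and this sum were both lowest in WT naive cells, but the sum was highest in cKO naive cells and Niban1 in WT effector cells.

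Upstream of ATF4, the kinases that phosphorylate eIF2, the subunits of eIF2 and of its exchange factor, and the phosphatase subunits form a list of 22 tested members. In naive cells 2 rose and 4 fell, where 12.9% of all genes rose and 11.9% fell. In effector cells 1 rose and 1 fell (10.7% and 9.37% of all genes), and in memory cells 0 rose and 1 fell (12.1% and 7%), with list medians of -0.06, -0.03 and 0.00. In naive cells Eif2s2, the beta subunit of eIF2, rose by 0.72 (limma adjusted p = 1.1e-05), and the chaperone Dnajc3, the phosphatase catalytic subunit Ppp1ca and the gamma subunit gene Eif2s3x fell by 0.34, 0.31 and 0.37 (limma adjusted p = 0.0015, 0.0053 and 0.0023). Reads of Eif2s3x and of its Y-linked near copy Eif2s3y may not be separated by the counting, so its value is uncertain. In effector cells Impact, which restrains the kinase GCN2, rose by 0.28 and Eif2s1, the alpha subunit, fell by 0.17 (limma adjusted p = 0.0096 and 0.020).

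Genes of the unfolded protein response, which the endoplasmic reticulum mounts, moved in both directions. Of 24 members, 6 rose and 6 fell in naive cells, beside 12.9% and 11.9% of all genes, 4 rose and 7 fell in effector cells, beside 10.7% and 9.37%, and 5 rose and 1 fell in memory cells, beside 12.1% and 7%, with list medians of -0.07, -0.10 and 0.00. Herpud1, a membrane protein of the degradation complex, rose in naive and memory cells by 1.09 and 0.72 (limma adjusted p = 9.1e-06 and 2.6e-05). Atf6, a sensor of the response, rose in the same subsets by 1.45 and 0.44 (limma adjusted p = 2.3e-05 and 0.0053). In effector cells the sensor kinase gene Ern1 rose by 0.43 (limma adjusted p = 2.4e-06), and the chaperones Pdia4, Hsp90b1 and Canx fell by 0.39, 0.31 and 0.29 (limma adjusted p = 2.9e-06, 3.3e-06 and 5.7e-06). The fall of these chaperones had the size and sign of that of Niban1.

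Of the genes of mTORC1 and cap-dependent translation, 2 of 27 rose and 4 fell in naive, 7 of 26 rose and 0 fell in effector, and 4 of 27 rose and 1 fell in memory cells, with medians of 0.01, 0.04 and 0.04. Of all genes 12.9% rose and 11.9% fell in naive, 10.7% and 9.37% in effector, and 12.1% and 7% in memory cells. Sesn2, a leucine sensor that restrains mTORC1, rose by 1.96 in naive and 1.35 in memory cells (limma adjusted p = 5.0e-06 and 2.6e-05), and Eif4ebp1, the repressor of the cap-binding factor, rose by 1.44 and 1.17 (limma adjusted p = 4.1e-05 and 0.00069). Both are also members of the stress response list. In effector cells Pdcd4, an inhibitor of the helicase eIF4A, rose by 0.41 (limma adjusted p = 2.8e-07), whereas in naive cells it fell by 0.39 (limma adjusted p = 0.0027). Pdcd4 and Niban1 thus had opposite signs in both subsets.

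Of 19 tested genes of the p53, MDM2 and NPM1 axis, 9 rose and 3 fell in naive, 5 rose and 0 fell in effector, and 6 rose and 2 fell in memory cells, with medians of 0.17, 0.15 and 0.07. The shares of all genes that rose and fell were 12.9% and 11.9%, 10.7% and 9.37%, and 12.1% and 7%. Of the 9 that rose in naive cells, Cdkn1a and Phlda3 passed the filter only through the cKO libraries. Among the p53 target genes, Pmaip1, which promotes apoptosis, rose by 1.51 in naive and 0.33 in effector cells (limma adjusted p = 2.7e-06 and 1.2e-05). Plk2, a stress-induced kinase, rose by 3.27 in naive and 0.91 in memory cells (limma adjusted p = 7.2e-06 and 4.1e-05). Cdkn1a, the cell cycle inhibitor p21, rose by 5.22 in naive (1.36 ± 1.54 to 74.9 ± 12.6 normalised reads, limma adjusted p = 2.3e-05) and 1.47 in memory cells (limma adjusted p = 0.00030). Npm1 and Mdm2, the pair through which NIBAN1 has been linked to p53, were not called in any subset.

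The called genes of the cell cycle list had the sign of Niban1 in each subset, effector cells included. Of its 26 genes, 23 rose and 0 fell in naive, 0 rose and 26 fell in effector, and 8 rose and 0 fell in memory cells, with medians of 1.83, -0.40 and 0.24. Beside these stand 12.9% of all genes that rose in naive, 9.37% that fell in effector and 12.1% that rose in memory cells. Mki67, a marker of dividing cells, rose by 2.82 in naive cells (221 ± 23.2 to 1565 ± 128 normalised reads, limma adjusted p = 7.0e-09) and by 0.50 in memory cells (limma adjusted p = 0.0019), and fell by 0.50 in effector cells (limma adjusted p = 7.6e-09). The 26 genes summed to between 450 and 460 CPM in WT and 867 and 906 in cKO naive libraries, 6044 to 6202 and 4501 to 4626 in effector, and 1032 to 1087 and 1281 to 1313 in memory libraries. The cKO naive cells had 22.6 times the Niban1 level of WT naive cells. Their mean cell cycle sum was 883 CPM, against 454 in WT naive cells. The part of cell division in the level of Niban1 was not tested.

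**Figure D4:**
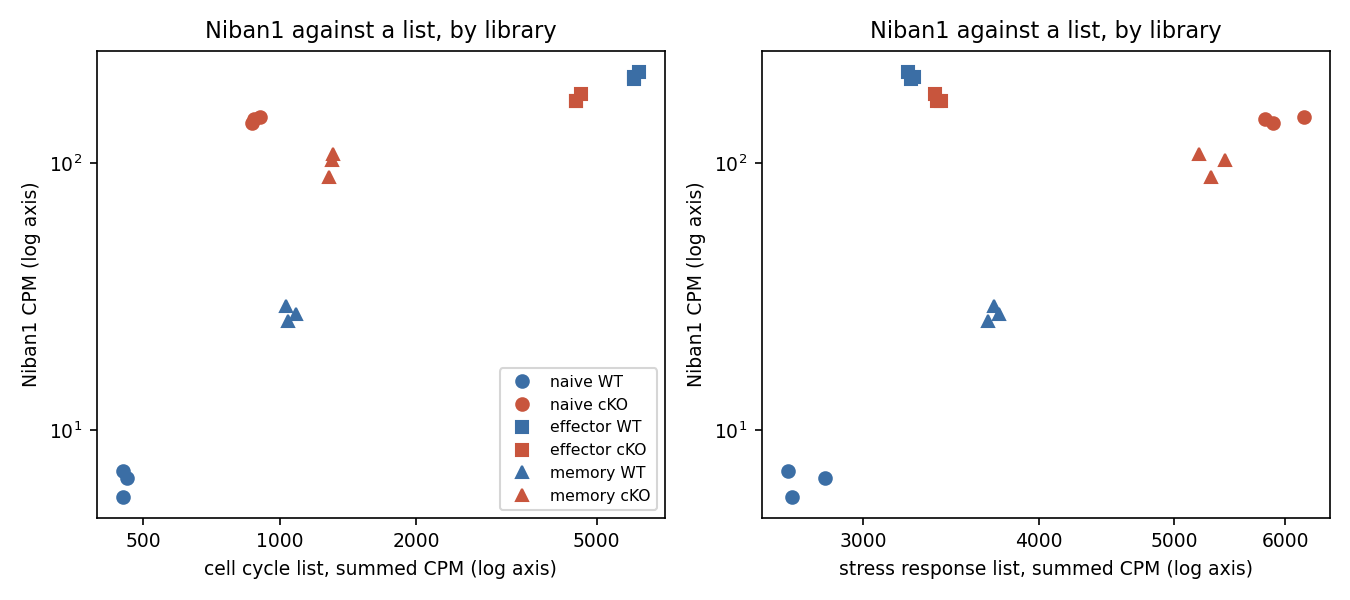
Niban1 level of each of the 18 libraries against the summed CPM of the cell cycle list (left) and of the integrated stress response list (right), all axes logarithmic, with blue for WT and red for cKO, circles for naive, squares for effector and triangles for memory cells. The libraries fall into 6 groups of 3, with cKO naive cells at 142 to 149 and WT memory cells at 25.7 to 29.3 CPM of Niban1.

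Markers of other cell types also moved with genotype, and bulk RNA does not show which cells made them. Of the gamma-delta T cell markers 4 of 4 tested rose in naive, 5 of 5 in effector and 4 of 4 in memory cells, where 12.9%, 10.7% and 12.1% of all genes rose. Trgc1, Trgc2 and Trgc4 in naive and Trgc4 and Trdv4 in effector cells passed the filter only through the cKO libraries, so these had to differ. The 7 markers summed to between 9.61 and 11.1 CPM in WT and 50.5 and 59.2 in cKO naive libraries, 9.01 to 9.73 and 64.0 to 66.7 in effector, and 16.1 to 17.0 and 118 to 153 in memory libraries. Of the 16 myeloid markers 0 of 2 tested rose in naive, 11 of 16 rose and 1 fell in effector, and 14 of 16 rose in memory cells, beside the same shares of all genes. Of the myeloid markers that rose, 3 in effector and 3 in memory cells passed only through the cKO libraries. The myeloid sums were 5.04 to 5.34 and 8.08 to 9.09 CPM in naive, 114 to 124 and 148 to 165 in effector, and 35.3 to 40.3 and 334 to 435 in memory libraries. C1qb and Siglech were at 0 in WT naive and Il23r in cKO naive cells. Both sums were higher in cKO cells in every subset. A sum of markers does not measure the Niban1 reads that such cells give. Natural killer cell markers (8) summed to 36.4 to 43.0 CPM in WT and 40.5 to 42.5 in cKO naive libraries, which overlap, 4483 to 4810 and 4977 to 5572 in effector, and 155 to 179 and 308 to 346 in memory libraries. Most of the naive sum was 1 gene, Eomes, at means of 37.8 CPM in WT and 33.2 in cKO cells. Most of the effector sum was Gzma, a granzyme that effector T cells make too. By gene, 3 of 5 tested rose and 1 fell in naive cells, beside 12.9% and 11.9% of all genes. In effector cells 6 of 8 rose and 2 fell, beside 10.7% and 9.37%, and in memory cells 7 of 8 rose and 0 fell, beside 12.1% and 7%. The 3 that rose in naive cells and 1 in memory cells passed only through the cKO libraries. The 10 erythroid markers summed to 6.91 to 19.3 and 8.92 to 11.3 CPM in naive, 26.2 to 26.5 and 126 to 132 in effector, and 44.7 to 54.0 and 107 to 123 in memory libraries. The 8 CD4 T cell markers summed to 101 to 115 and 161 to 186 CPM in naive, 297 to 308 and 256 to 273 in effector, and 414 to 441 and 240 to 269 in memory libraries. Over all 18 libraries Ctla4 and Icos had the highest means of the 8, at 108 and 97.8 CPM, and Cd4 itself was at 6.20. The 8 stromal and endothelial markers found were lower in cKO naive (167 to 174 and 125 to 135 CPM) and cKO memory libraries (163 to 173 and 115 to 122) and overlapped in effector libraries (21.3 to 24.1 and 19.2 to 24.8). Nearly all of this sum was 1 gene, the adhesion molecule Pecam1, which leukocytes make too, at 165 to 173 and 121 to 130 CPM in naive and 159 to 168 and 103 to 112 in memory libraries. Of the other stromal and endothelial markers 1 rose in naive and 2 in memory cells, all through the cKO libraries only. The part of cells of these types in the level of Niban1 was not tested.

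The 13 markers of the effector state moved with genotype too, in both directions. Of 11 tested, 8 rose, 3 of them tested only through the cKO libraries, and 1 fell in naive cells, beside 12.9% and 11.9% of all genes. Of 13, 5 rose and 4 fell in effector cells, beside 10.7% and 9.37%, and 11 rose and 2 fell in memory cells, beside 12.1% and 7%. Their sum was 239 to 258 CPM in WT and 300 to 314 in cKO naive libraries, 12388 to 12881 and 12326 to 13060 in effector libraries, which overlap, and 699 to 746 and 1402 to 1714 in memory libraries. Most of the naive sum was Id2 and Prf1, at means of 142 and 66.8 CPM in WT and 177 and 28.0 in cKO cells. Ccl5, a smaller part of it, went from 3.53 to 28.6 CPM. The 10 naive-state markers summed to between 6749 and 7185 CPM in WT and 6680 and 7135 in cKO naive libraries, which overlap, 1786 to 1983 in effector libraries of both genotypes, and 8502 to 8853 in WT and 6507 to 7015 in cKO memory libraries, which do not overlap. Of the 10, 0 rose and 8 fell in memory cells, where 12.1% of all genes rose and 7% fell, and 2 rose and 5 fell in naive cells and 3 rose and 4 fell in effector cells. The part of the cell state in the level of Niban1 was not tested.

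The genes whose levels were most like those of Niban1 were sought by Pearson's r of log2(CPM + 1) over the 18 libraries, among 9436 genes with a known symbol and a mean of at least 5 CPM. They were Psat1 (r = 0.98), Zfta (0.97), Cyfip2 (0.96), Uck2, Dclk2, Gars, Soat2 and Asns (0.95 each), and 29 genes had an r above 0.9. The 18 points form 6 clusters of 3 libraries, so each r describes 6 group means more than 18 independent samples, and no p is given. Psat1, Gars and Asns are members of the stress response list, whose 35 members at this level had r between -0.31 and 0.98 with a median of 0.39. The 26 cell cycle genes had r between 0.69 and 0.87 with a median of 0.80, higher in the middle but without a gene above 0.9. With Spearman's correlation 2 of these 8 genes remained among the first 8, and with Pearson's r over the 6 group means 5 of 8.

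Psat1, an enzyme of serine synthesis, had mean levels of 27.9, 40.8, 62.2, 60.7, 71.5 and 76.7 CPM in WT naive, WT memory, cKO memory, cKO naive, cKO effector and WT effector cells, which is the Niban1 order but for the cKO memory and naive groups. Gars was at 96.8, 112, 150, 178, 203 and 226 CPM in the same groups and kept the order of Niban1 throughout, as 116 of the 9436 genes did. Both spanned far less than Niban1, with a slope of 0.29 for Psat1 and 0.24 for Gars in log2 units per log2 unit of Niban1. Asns was at 0.188, 2.07, 7.78, 12.8, 7.75 and 6.86 CPM, so it was highest in cKO naive cells. Soat2, which esterifies cholesterol, was at 0.795, 5.89, 55.7, 61.3, 39.4 and 33.4 CPM, with a slope of 1.03, the largest of the 8. Zfta was at 8.38, 13.4, 21.7, 26.8, 28.2 and 25.2 CPM, Cyfip2, an actin regulator, between 369 and 571, the uridine kinase gene Uck2 between 84.2 and 126, and the kinase gene Dclk2 between 6.38 and 16.6.

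All 8 genes were chosen for their likeness over the same libraries, so their differences are a description. Psat1, Gars and Asns, members of the stress response list, were at 1.01, 0.76 and 5.72 in naive and 0.53, 0.34 and 1.80 in memory cells. Asns passed the filter in naive cells only through the cKO libraries. In effector cells Gars fell, as given above, and Psat1 and Asns stood at -0.10 and 0.19. Zfta, Cyfip2, Uck2, Dclk2 and Soat2 were at 1.56, 0.37, 0.47, 1.15 and 6.09 in naive, 0.17, -0.06, -0.07, -0.13 and 0.23 in effector, and 0.62, 0.13, 0.20, 0.60 and 3.16 in memory cells. All 8 genes thus had their largest difference in the naive comparison, as Niban1 did.

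**Figure D5:**
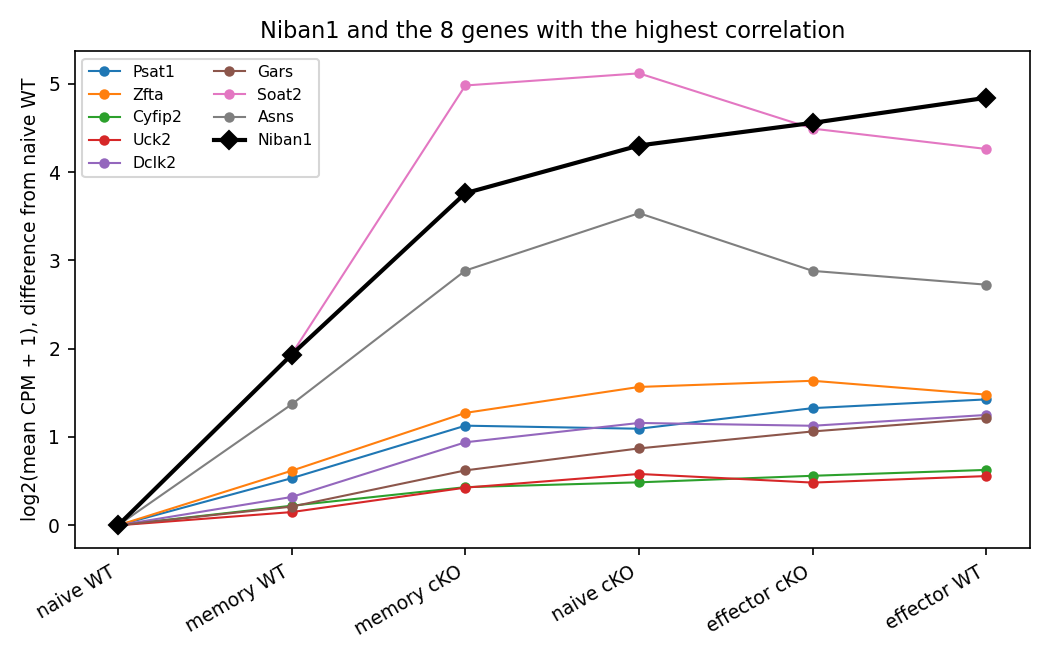
Difference of log2(mean CPM + 1) from WT naive cells (vertical axis) for Niban1 (black diamonds) and the 8 genes with the highest Pearson r to it, with the 6 groups ordered by the mean of Niban1; lines join the points of a gene and have no other meaning. Niban1 rises along the whole axis by construction, Gars does so too, and Soat2 and Asns peak in cKO naive cells.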

How the data were processed

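Per the submitters' processing notes, the tools were DESeq2 1.42.0, featureCounts 2.0.6, HISAT2 2.2.1 and fastp, on the build GRCm39; settings, annotation and strand are not given in the sources used here. The authors deposited 1 table per subset with a normalised signal value per gene and library, group means, and log2 fold changes of WT over cKO; their p-values, also deposited, were not used. Each deposited signal value divided by the smallest positive value of its library gave whole reads for 100% of values within 1e-05, and CPM were computed from these. Genotype effects were fitted within each table with limma 3.58.1 (R 4.3.3), with an intensity trend, on log2(value + 1), for genes that reached 10 normalised reads in 3 or more libraries, adjusted by Benjamini-Hochberg over all genes tested and called under 0.05. Differences between subsets were interaction terms over all 18 libraries. Called were 3454 naive, 2779 effector and 2793 memory genes. Library totals in place of size factors moved the median of all naive genes from -0.01 to 0.09, and the calls there from 1796 higher and 1658 lower to 2945 and 831, in memory cells from 1769 and 1024 to 2318 and 663. Alternatives were other pseudocounts, no filter, library totals, edgeR 4.0.16 and DESeq2 on recovered reads, 1 fit of all libraries, a replicate block and leaving out each library. The genotype and interaction fits were tested on simulated data with known changes. Genes named beside Niban1 were its paralogs, Hspa9, sex-linked genes, up to 4 called members of each list with the smallest adjusted p per subset, 4 tested neighbours on each side, the 8 genes most like it and 3 genes above and below it by log2 difference. Niban1 and the lists were chosen with earlier results of these data known. Of the list entries, Fgf21, Nars1 and Col3a1 matched no gene; lists of B, CD4, NK, erythroid and stromal cell markers were measured too.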

Additional observations from a re-analysis of the deposited data

Results flagged for a closer look

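The genotype effect on several genes differed between subsets. For Niban1 every cKO library was above every WT library in naive and memory cells and below in effector cells. The effector minus naive difference was -4.65 and the memory minus effector difference 2.07, neither tested. For Niban2 the memory minus effector difference was 2.00 (limma interaction, adjusted p = 0.0089), and for the neighbour Edem3 it was -0.56 (limma, adjusted p = 0.018). The effector minus naive difference was -0.84 for 1700025G04Rik (limma, adjusted p = 3.5e-05). For the stress response members Asns, Psat1 and Gars it was -5.53, -1.10 and -0.91. For Soat2, Zfta, Dclk2, Uck2 and Cyfip2 it was -5.86, -1.39, -1.28, -0.54 and -0.43. These 8 genes were chosen for their likeness to Niban1 over these libraries, so their values are a description. Of 42 stress response members, 37 differed between effector and naive, 28 between memory and naive, and 29 between memory and effector cells, beside 18.5%, 16.9% and 8.71% of 15694 genes. Members that passed the filter through 1 group alone are favoured to differ and were not counted apart. In every difference from naive cells, genotype and sex cannot be told apart.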

How the results depend on the processing

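Besides leaving out libraries, 109 values kept their direction and size class under the alternatives and 7 moved, and no value changed sign. The balance of calls for memory minus naive did turn, with 1486 positive and 1259 negative by edgeR against 1239 and 1413, and edgeR called 1090 and 519 for memory minus effector against 745 and 622. In 1 fit of all libraries 1519 genes were called in effector cells, against 2779. The Niban1 log2 ratio of cKO effector to naive cells was 0.45 with TMM and 0.48 with DESeq2 factors over all libraries, against 0.26, and that of cKO memory to effector cells -0.92 with DESeq2 factors, against -0.80. Spearman's correlation left 2, and group means 5, of the 8 genes most like Niban1. The replicate numbers did not pair the libraries (correlations of deviations from -0.14 to 0.07, and not every library closest to its own number). With the number as a replicate block, 877 genes differed for memory minus effector, against 1367, and 36, 10 and 35 stress response members were called in naive, effector and memory cells, against 36, 9 and 36. Leaving out 1 library gave 2127 to 3301 called genes in naive (2138 without cKO 1, 2127 without cKO 2) and 1830 to 3049 in memory cells (1830 without WT 3, 1836 without cKO 3). Leaving out a replicate number gave 1708 to 1802 called genes for effector minus naive, 1042 to 1959 for memory minus naive and 431 to 893 for memory minus effector, and Niban1 differences of -4.75 to -4.54 for effector minus naive and -2.67 to -2.48 for memory minus naive. Fewer libraries are fitted there; the cause of the other moves was not tested. The 90 to 111 reads of Niban1 in WT naive libraries limit the precision of the naive ratio.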
